A study of Mus musculus with 12 samples.

Results

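Inhibitory checkpoints are surface receptors and ligands that restrain T cells after activation, and 10 genes of this system were described here in mouse T cells that had met foreign dendritic cells. They comprise the receptor genes Pdcd1 (PD-1), Havcr2 (TIM-3), Lag3, Tigit, Ctla4, Cd160 and Vsir (VISTA), the PD-1 ligand genes Cd274 (PD-L1) and Pdcd1lg2 (PD-L2), and Tox, which encodes a nuclear factor tied to T cell exhaustion. Each was taken through the array's gene annotation by its symbol. Every one of the 10 had 1 transcript cluster (a group of probes read as 1 transcript) that carried its symbol alone, so all 10 of the 22180 genes measured this way entered and none was lost to a filter on low values.

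The T cells were CD4 or CD8 cells of C57BL6-Foxp3-GFP mice, in which green fluorescent protein reports Foxp3, the master transcription factor of regulatory T cells. Wells of 200000 T cells received 20000 CD11c dendritic cells of the BALB/c strain. The CD8 Foxp3-positive group was grown for 4 days with 5 ng/mL IL-2, 5 ng/mL TGF-beta and 40 nM retinoic acid and sorted for GFP, and the CD8 control group was grown for the same 4 days with the same IL-2 alone and sorted as GFP-negative. The CD4 Foxp3-positive and CD4 control groups were made alike over 5 days. Each group had 3 arrays, replicates A to C. All groups share the reporter strain, the dendritic cells and IL-2. Cytokine treatment and Foxp3 sort always changed together, and so did lineage and days of culture, so neither can be told apart from its partner. Cells of the wells were pooled before staining, and nothing in the labels says that replicates came from separate cultures or animals, so p-values reflect the spread among these arrays alone, and that spread may be technical.

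PD-1 binds PD-L1 or PD-L2 on a neighbouring cell and recruits phosphatases that dampen signals of the T cell receptor and CD28. CTLA-4 takes the ligands CD80 and CD86 away from CD28, TIGIT competes with the activating receptor CD226 for the ligand CD155 (Pvr), LAG-3 binds class II molecules, and TIM-3 marks interferon-producing and exhausted cells. Regulatory T cells carry several of these receptors constitutively, above all CTLA-4 and TIGIT. TOX maintains the exhausted state of T cells under lasting stimulation and also acts in thymic development.

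Values are log2 expression levels, so a difference of 1 is a doubling of array signal. They are given per array in the order of replicates A, B and C, group means with SD (n = 3 arrays), and log2 differences with the standard error of a limma model fitted to all 12 arrays and its p-value adjusted by Benjamini-Hochberg over all 22180 genes. A gene is said to have risen or fallen where that adjusted p was under 0.05. Levels of different genes are not compared, because each has its own probes. No background level was given, and where a group mean does not clearly exceed 5.60 (the median over genes of the mean level), a fold is a ratio of array signal rather than of RNA.

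Foxp3 and Cd4 followed the labels. Runx3 separated the lineages among Foxp3-positive cells but not among controls, and Zbtb7b separated them in both, by less than Cd4. Foxp3 averaged 12.48 ± 0.05 in CD8 Foxp3-positive and 5.66 ± 0.59 in CD8 control cells, and 12.44 ± 0.05 in CD4 Foxp3-positive and 5.76 ± 0.29 in CD4 control cells. Cd4 averaged 5.17 and 5.36 in the CD8 Foxp3-positive and CD8 control groups, and 11.92 and 12.31 in the CD4 Foxp3-positive and CD4 control groups. In the same order of groups Cd8a averaged 12.54, 11.79, 7.54 and 6.51, and Cd8b1 11.97, 11.86, 6.17 and 7.72. Runx3 averaged 10.34, 10.19, 9.09 and 10.13, and Zbtb7b 6.40, 6.96, 7.03 and 7.47. All 3 CD8 lineage markers (Cd8a, Cd8b1 and Runx3) thus lay above 5.60 in the CD4 groups too. All 6 measured T cell markers lay above 5.60 in every group. Arrays of the same group correlated at r = 0.9916 to 0.9945 across genes, which are not independent replicates, and arrays of different groups at 0.9617 to 0.9905. Dendritic cells were in the wells and can express PD-L1, PD-L2, VISTA and TIM-3. The mean of 16 dendritic cell markers ran per array from 6.14 to 6.35 in CD8 Foxp3-positive, 6.27 to 6.29 in CD8 control, 6.30 to 6.54 in CD4 Foxp3-positive and 6.36 to 6.40 in CD4 control cells. Of these markers 9, 9, 10 and 9 lay above 5.60 in the same groups, with the lowest at 4.71, 4.55, 4.80 and 4.71 (Siglech, and Ccl17 in CD8 control cells) and the highest at 9.47, 9.49, 9.23 and 10.00 (Cd209a in the Foxp3-positive and H2-Ab1 in the control groups). The part of such cells in the results was not tested. In sorted bulk samples, fewer cells of a type and less RNA per cell cannot be told apart.

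In CD8 cells 9 of the 10 genes passed the test, 7 higher and 2 lower in Foxp3-positive than in control cells, where 20.0% of all genes passed, 9.39% higher and 10.6% lower. In CD4 cells 7 passed, 3 higher and 4 lower, where 22.5% of all genes passed, 12.1% higher and 10.4% lower. The median difference of the 10 genes was 0.70 in CD8 cells and -0.02 in CD4 cells, against -0.02 and 0.00 over all genes. The direction often depended on the lineage. Cd274, Pdcd1lg2 and Vsir rose in CD8 cells and fell in CD4 cells, a combination that 0.694% of all genes showed, and Pdcd1 fell in CD8 cells and rose in CD4 cells, as 0.703% of all genes did. Tox and Cd160 rose in both lineages, Havcr2 fell in both, Tigit and Ctla4 passed only in CD8 cells and Lag3 in neither. The effects in CD8 and CD4 cells differed past the threshold for 7 of the 10 genes, where 13.5% of all genes did. For 5 of them the effect was more positive in CD8 cells (6.01% of all genes) and for 2 in CD4 cells (7.48%).

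**Figure D1:**
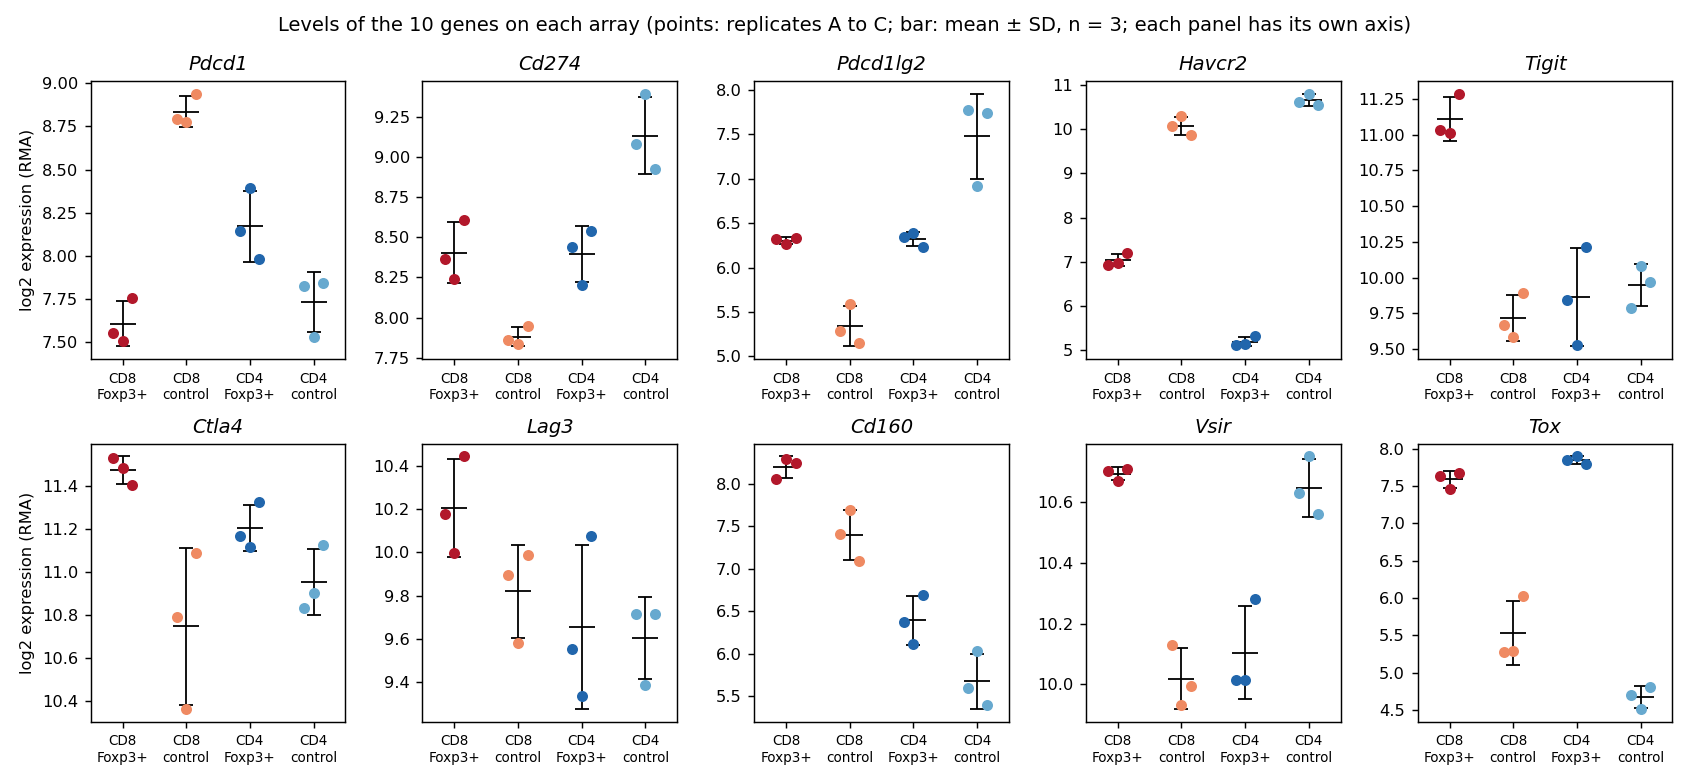
Log2 expression of the 10 genes (vertical axes, 1 scale per gene) on the 12 arrays, with points for replicates A to C and bars for the mean ± SD of 3 arrays in each group. Havcr2 lies at 5.12 to 7.19 on the Foxp3-positive arrays and at 9.87 to 10.80 on the control arrays, while Tox lies at 7.46 to 7.90 on the Foxp3-positive and 4.51 to 6.03 on the control arrays.

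**Figure D2:**
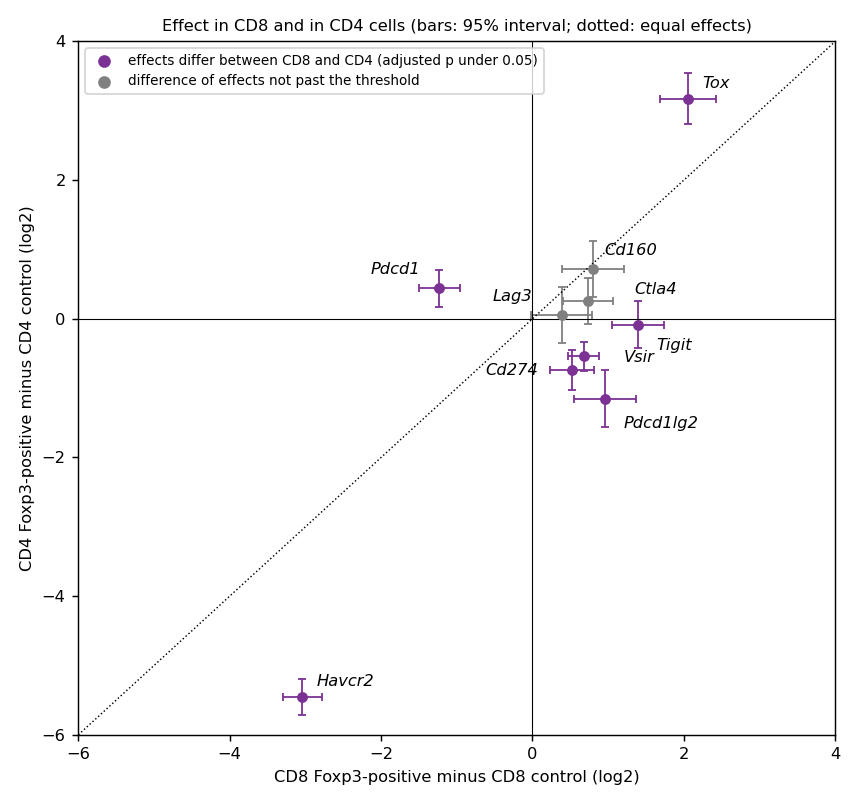
Log2 difference of Foxp3-positive minus control cells in CD8 cells (horizontal) and CD4 cells (vertical) for each gene, with bars for the 95% interval of the limma model and a dotted line for equal effects. Pdcd1 lies at -1.23 and 0.44, while Cd274, Pdcd1lg2 and Vsir lie on the other side of both axes, and purple marks the 7 genes whose effects differed.

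The promoters of 5 genes are shown because their transcripts either changed most (Havcr2) or moved oppositely in the lineages (Pdcd1, Cd274, Pdcd1lg2 and Vsir). Each line gives the 250 bases before the annotated start, 5′ to 3′ on the gene's strand, from RefSeq with build GRCm38.p6, and 8 of the 10 genes had an entry. Capitals mark matches, on either strand, of 6 searched motifs.
Havcr2, chr11:46454681-46454930, plus strand: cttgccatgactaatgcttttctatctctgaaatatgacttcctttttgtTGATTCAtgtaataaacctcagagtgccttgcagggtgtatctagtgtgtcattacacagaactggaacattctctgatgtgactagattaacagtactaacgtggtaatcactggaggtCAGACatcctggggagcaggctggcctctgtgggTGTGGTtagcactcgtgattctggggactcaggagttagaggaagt
Pdcd1, chr1:94052554-94052803, minus strand: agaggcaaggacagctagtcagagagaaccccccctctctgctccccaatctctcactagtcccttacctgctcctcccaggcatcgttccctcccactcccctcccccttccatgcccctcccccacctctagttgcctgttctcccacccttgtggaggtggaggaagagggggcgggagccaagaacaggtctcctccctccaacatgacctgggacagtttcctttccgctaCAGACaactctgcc
Cd274, chr19:29367188-29367437, plus strand: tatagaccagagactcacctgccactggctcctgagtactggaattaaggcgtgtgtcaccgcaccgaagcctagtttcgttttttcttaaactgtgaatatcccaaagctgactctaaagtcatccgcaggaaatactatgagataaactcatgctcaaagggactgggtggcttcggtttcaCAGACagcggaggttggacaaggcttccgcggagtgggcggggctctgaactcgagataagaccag
Pdcd1lg2, chr19:29410669-29410918, plus strand: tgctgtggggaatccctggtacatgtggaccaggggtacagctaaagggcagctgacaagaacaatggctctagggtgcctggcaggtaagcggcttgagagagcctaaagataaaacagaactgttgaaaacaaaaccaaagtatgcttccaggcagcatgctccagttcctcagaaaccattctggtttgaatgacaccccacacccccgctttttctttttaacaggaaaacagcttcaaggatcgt
Vsir, chr10:60346601-60346850, plus strand: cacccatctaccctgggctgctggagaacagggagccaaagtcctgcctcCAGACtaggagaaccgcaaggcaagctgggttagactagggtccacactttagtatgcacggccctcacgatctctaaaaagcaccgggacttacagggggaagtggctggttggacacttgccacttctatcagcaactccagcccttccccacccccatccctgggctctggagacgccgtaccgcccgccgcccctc
The motifs were the core of the interferon response element (GAAA, any 2 bases, GAAA, in 2.98% of 32851 promoter windows of that length), TTCNNNGAA (STAT site, 7.02%), TGANTCA (AP-1 site, 6.75%), GTAAACA (forkhead site, 3.17%), CAGAC (Smad box, 42.2%) and TGTGGT (RUNX site, 14%). In the Havcr2 window the first base of an AP-1 match lay 200 bases, of a Smad box 80 bases and of a RUNX match 46 bases before the start. Pdcd1, Cd274 and Vsir each held 1 Smad box match, beginning 14, 66 and 200 bases before the start. None of the 6 motifs matched the Pdcd1lg2 window. A match describes letters only, and no binding was measured.

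PD-1 transcripts went opposite ways in the lineages. Pdcd1 stood at 7.56, 7.51 and 7.76 in CD8 Foxp3-positive cells, against 8.79, 8.77 and 8.94 in CD8 control cells. The CD4 Foxp3-positive arrays had 8.14, 8.39 and 7.98, against 7.83, 7.53 and 7.84 in CD4 control cells. The arrays of Foxp3-positive and control cells did not overlap in either lineage, as for 33.5% of all genes in CD8 and 37.8% in CD4 cells. Pdcd1 fell 2.35-fold in CD8 cells (log2 difference -1.23 ± 0.12, limma adjusted p = 1.29e-05) and rose 1.36-fold in CD4 cells (0.44 ± 0.12, adjusted p = 0.0208). The rise in CD4 cells lost its call without CD4 control replicate B (adjusted p = 0.0946) and without CD4 Foxp3-positive replicate B (0.0962), while the fall in CD8 cells kept its call with any array left out. The effects differed by -1.67 ± 0.17 (adjusted p = 5.67e-05). CD8 control cells had the highest level of the 4 groups, and the arrays of the lowest, CD8 Foxp3-positive cells, overlapped with those of CD4 control cells.

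The genes of the PD-1 ligands, which neighbour each other on chromosome 19, mirrored that pattern. Cd274 had 8.36, 8.24 and 8.61 in CD8 Foxp3-positive cells, against 7.86, 7.83 and 7.95 in CD8 control cells. The CD4 Foxp3-positive arrays had 8.44, 8.20 and 8.54, against 9.08, 9.39 and 8.93 in CD4 control cells. CD4 control cells were thus the highest and CD8 control cells the lowest, and both Foxp3-positive groups overlapped between them. Cd274 rose 1.44-fold in CD8 cells (0.52 ± 0.13, limma adjusted p = 0.0143) and fell 1.67-fold in CD4 cells (-0.74 ± 0.13, adjusted p = 0.00134). Without CD8 Foxp3-positive replicate C the rise lost its call (0.42, adjusted p = 0.0698). The difference of the effects was 1.26 ± 0.19 (adjusted p = 0.000869).

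Pdcd1lg2 had the same highest and lowest groups with a wider range. Its levels were 6.32, 6.26 and 6.33 in CD8 Foxp3-positive cells, against 5.29, 5.59 and 5.15 in CD8 control cells. The CD4 Foxp3-positive arrays had 6.35, 6.39 and 6.23, against 7.77, 6.92 and 7.74 in CD4 control cells, where replicate B lay below the other arrays. The 6 Foxp3-positive arrays fell within 6.23 to 6.39. Pdcd1lg2 rose 1.95-fold in CD8 cells (0.96 ± 0.19, limma adjusted p = 0.00256), where the CD8 control mean of 5.34 lay below 5.60. It fell 2.22-fold in CD4 cells (-1.15 ± 0.19, adjusted p = 0.000595), and the effects differed by 2.11 ± 0.27 (adjusted p = 0.000246). Of the 16 dendritic cell markers, 2 rose and 2 fell in CD8 cells and 3 rose and 2 fell in CD4 cells, where 20.0% and 22.5% of all genes passed in either direction. In CD8 cells Cd40 (1.18 ± 0.21) and Cst3 (0.38 ± 0.10) were the markers that rose, and Itgax (-1.76 ± 0.13) and Ly75 (-1.66 ± 0.14) those that fell. In CD4 cells Cd40 (2.18 ± 0.21), Ccl17 (0.78 ± 0.24) and Cd83 (0.51 ± 0.12) rose, and H2-Ab1 (-1.05 ± 0.33) and Ly75 (-0.99 ± 0.14) fell. Cd40 and Cst3 thus moved with the ligand genes in CD8 cells, and H2-Ab1 and Ly75 in CD4 cells, and the part of these markers in the PD-1 ligand results was not tested. The flanking genes of this locus in GRCm38.p6, Plgrkt and Ric1, were picked for their position. Plgrkt rose in CD8 cells (0.45 ± 0.11, adjusted p = 0.00761) and was at 0.03 ± 0.11 in CD4 cells (adjusted p = 0.881), while Ric1 rose in CD8 cells (0.49 ± 0.10, adjusted p = 0.00302) and in CD4 cells (0.58 ± 0.10, adjusted p = 0.000793).

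Vsir, whose product VISTA acts as ligand and as receptor on T cells and myeloid cells, moved like the PD-1 ligand genes. It had 10.70, 10.67 and 10.71 in CD8 Foxp3-positive cells, against 10.13, 9.93 and 9.99 in CD8 control cells. The CD4 Foxp3-positive arrays read 10.02, 10.01 and 10.28, against 10.63, 10.75 and 10.56 in CD4 control cells. The CD8 Foxp3-positive and CD4 control arrays overlapped at the upper level, and the CD4 Foxp3-positive and CD8 control arrays at the lower. Vsir rose 1.60-fold in CD8 cells (0.67 ± 0.10, limma adjusted p = 0.000245) and fell 1.46-fold in CD4 cells (-0.54 ± 0.10, adjusted p = 0.00113), with a difference of the effects of 1.22 ± 0.14 (adjusted p = 9.97e-05). Of 11 macrophage and monocyte markers, 3 rose and 1 fell in CD8 cells and 2 rose and 1 fell in CD4 cells, where 20.0% and 22.5% of all genes passed. Their mean per array ran from 5.40 to 5.82 in CD8 Foxp3-positive and 5.20 to 5.35 in CD8 control cells, and from 5.20 to 5.47 in CD4 Foxp3-positive and 5.19 to 5.35 in CD4 control cells. Lyz2 (1.82 ± 0.29 in CD8 and 1.06 ± 0.29 in CD4 cells) and Itgam (1.19 ± 0.21 and 1.38 ± 0.21) rose in both lineages, C1qb (0.72 ± 0.19) in CD8 cells, and Cd68 fell in both (-0.63 ± 0.14 and -1.19 ± 0.14). Their part in the Vsir result was not tested.

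Interferon-gamma is the classical inducer of PD-L1, acting through JAK kinases and IRF1, and 10 genes of that pathway were measured. In CD8 cells 6 of the 10 rose and 1 fell, and in CD4 cells 2 rose and 5 fell, where 9.39% of all genes rose and 10.6% fell in CD8 cells and 12.1% rose and 10.4% fell in CD4 cells. The median differences were 0.33 and -0.40, against -0.02 and 0.00 over all genes. The effects differed past the threshold for 7, all in the direction of CD8 over CD4, where 13.5% of all genes differed and 6.01% in that direction. The median of the 10 differences of effects was 1.00, against -0.01 over all genes. Between the controls 1 of the 10 was higher and 8 were lower in CD8 than in CD4 cells (median -1.19), where 12.1% and 8.76% of all genes were. Between the Foxp3-positive groups only 1 passed, lower in CD8 cells (median -0.04), where 4.71% of all genes passed. Ifng itself fell in both lineages, by 2.26 ± 0.25 on the log2 scale in CD8 cells (limma adjusted p = 3.1e-05) and by 3.66 ± 0.25 in CD4 cells (adjusted p = 3.16e-07), with means of 4.37 and 4.47 in the Foxp3-positive groups that lay below 5.60. Ifngr2, a chain of its receptor, rose 4.89-fold in CD8 cells and 2.40-fold in CD4 cells. Jak2 fell in CD4 cells (-1.07 ± 0.12, adjusted p = 2.26e-05) and was at -0.10 ± 0.12 in CD8 cells (adjusted p = 0.668).

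Irf1, Irf9 and Socs1, picked from this list after their values were seen, ordered the 4 groups as Cd274 did at the extremes. Stat3 and Irf2 had the same highest and lowest groups, and the rest of the list did not. Ifngr1 and Jak1 were lowest in CD4 control cells, where Cd274 was highest. Ifngr2 was highest in CD4 Foxp3-positive cells, and Ifng and Jak2 were lowest in CD8 Foxp3-positive cells. Irf1 averaged 9.30 in CD8 Foxp3-positive and 8.59 in CD8 control cells, and 9.28 in CD4 Foxp3-positive and 9.84 in CD4 control cells. It rose in CD8 cells (0.72 ± 0.13, limma adjusted p = 0.00169) and fell in CD4 cells (-0.56 ± 0.13, adjusted p = 0.00772). Irf9 rose by 0.63 ± 0.12 in CD8 cells and fell by 0.41 ± 0.12 in CD4 cells (adjusted p = 0.00274 and 0.0295). Socs1, a feedback inhibitor of this pathway, rose in CD8 cells (0.89 ± 0.14, adjusted p = 0.00064) and was at -0.38 ± 0.14 in CD4 cells (adjusted p = 0.0838). The part of interferon-gamma and its pathway in the results of Cd274, Pdcd1lg2 and Vsir was not tested.

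Among the receptors, Havcr2 had the largest change of the 10 genes in both lineages. It stood at 6.94, 6.98 and 7.19 in CD8 Foxp3-positive cells, against 10.07, 10.29 and 9.87 in CD8 control cells. On the CD4 Foxp3-positive arrays it was 5.12, 5.15 and 5.32, against 10.61, 10.80 and 10.54 in CD4 control cells. No neighbouring groups overlapped. Havcr2 fell 8.22-fold in CD8 cells (-3.04 ± 0.12, limma adjusted p = 5.03e-09) and 43.8-fold in CD4 cells (-5.45 ± 0.12, adjusted p = 2.12e-11), where the mean of 5.20 in CD4 Foxp3-positive cells lay below 5.60. By size these differences ranked 61 and 8 among all genes. The fall was larger in CD4 cells, the effects differing by 2.41 ± 0.17 (adjusted p = 2.78e-06).

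Tigit rose in CD8 cells. It had 11.03, 11.01 and 11.29 in CD8 Foxp3-positive cells, against 9.67, 9.59 and 9.89 in CD8 control cells. On the CD4 Foxp3-positive arrays it was 9.85, 9.53 and 10.22, against 9.79, 10.08 and 9.97 in CD4 control cells. The CD8 Foxp3-positive arrays stood above all 9 others, which overlapped among themselves. Tigit rose 2.63-fold in CD8 cells (1.39 ± 0.16, limma adjusted p = 3.47e-05), and its difference in CD4 cells was -0.08 ± 0.16 (95% interval -0.43 to 0.26, adjusted p = 0.77). The effects differed by 1.48 ± 0.22 (adjusted p = 0.000855). Cd226, its activating competitor, is another listed gene and was chosen here for its role after its values were seen. It rose by 0.93 ± 0.13 in CD8 cells and by 0.91 ± 0.13 in CD4 cells, and the shared ligand gene Pvr fell by 0.94 ± 0.13 and 0.73 ± 0.13 in the same lineages.

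Ctla4 had 11.54, 11.49 and 11.41 in CD8 Foxp3-positive cells, against 10.79, 10.36 and 11.09 in CD8 control cells. On the CD4 Foxp3-positive arrays it was 11.17, 11.12 and 11.33, against 10.83, 10.90 and 11.13 in CD4 control cells. The CD8 control arrays spread most, with an SD of 0.37, and the CD4 groups overlapped. Ctla4 rose 1.66-fold in CD8 cells (0.73 ± 0.15, limma adjusted p = 0.00384), while the difference of 0.25 ± 0.15 in CD4 cells did not pass (95% interval -0.08 to 0.58, adjusted p = 0.288). The difference of the effects did not pass (0.48 ± 0.22, adjusted p = 0.182), except without CD8 control replicate C (0.65, adjusted p = 0.0354).

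Ctla4 lies between Cd28 and Icos on chromosome 1, and these related activating receptor genes were taken up for that position. Cd28 averaged 8.44 in CD8 Foxp3-positive and 9.80 in CD8 control cells, and 9.63 in CD4 Foxp3-positive and 10.19 in CD4 control cells. It fell in CD8 cells (-1.36 ± 0.11, limma adjusted p = 2.62e-06) and in CD4 cells (-0.56 ± 0.11, adjusted p = 0.00305). Icos averaged 10.19 in CD8 Foxp3-positive and 9.66 in CD8 control cells, and 9.85 in CD4 Foxp3-positive and 10.40 in CD4 control cells. Icos, like the PD-1 ligand genes, rose in CD8 cells (0.53 ± 0.10, adjusted p = 0.0014) and fell in CD4 cells (-0.55 ± 0.10, adjusted p = 0.000865).

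Lag3, a relative and chromosomal neighbour of Cd4, passed in neither lineage in the fit reported. With replicate letters added to the model as a block, it passed in CD8 cells (0.38, limma adjusted p = 0.0268). It had 10.18, 10.00 and 10.44 in CD8 Foxp3-positive cells, against 9.90, 9.58 and 9.99 in CD8 control cells. On the CD4 Foxp3-positive arrays it was 9.55, 9.34 and 10.08, against 9.72, 9.39 and 9.72 in CD4 control cells. The 4 group means ran within 0.60 of each other. The difference was 0.38 ± 0.18 in CD8 cells (95% interval -0.02 to 0.78, limma adjusted p = 0.19) and 0.05 ± 0.18 in CD4 cells (-0.35 to 0.45, adjusted p = 0.89). The CD4 value changed sign without CD4 Foxp3-positive replicate C (-0.16), the array with the highest level in its group, and without CD4 control replicate B (-0.059), the lowest in its group.

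Cd160, a receptor for the TNF receptor family member HVEM found on cytotoxic T cells, rose in both lineages. Its levels were 8.05, 8.29 and 8.25 in CD8 Foxp3-positive cells, against 7.41, 7.69 and 7.10 in CD8 control cells. The CD4 Foxp3-positive arrays read 6.37, 6.12 and 6.69, against 5.60, 6.03 and 5.39 in CD4 control cells. No neighbouring groups overlapped, and both CD8 groups stood above both CD4 groups. Cd160 rose 1.74-fold in CD8 cells (0.80 ± 0.19, limma adjusted p = 0.00824) and 1.65-fold in CD4 cells (0.72 ± 0.19, adjusted p = 0.0145). The CD4 control mean of 5.67 did not clearly exceed 5.60. The call in CD4 cells was lost without replicate C of CD4 control (adjusted p = 0.0671) or of CD4 Foxp3-positive cells (0.0614). The difference of the effects was 0.08 ± 0.27 (95% interval -0.50 to 0.66, adjusted p = 0.893). Tnfrsf14, which encodes HVEM and was picked for that role after its values were seen, rose by 1.20 in CD8 cells (adjusted p = 1.36e-06) and by 0.54 in CD4 cells (adjusted p = 0.000915).

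Tox rose in both lineages. It had 7.63, 7.46 and 7.67 in CD8 Foxp3-positive cells, against 5.28, 5.29 and 6.03 in CD8 control cells. The CD4 Foxp3-positive arrays read 7.84, 7.90 and 7.79, against 4.70, 4.51 and 4.80 in CD4 control cells. All 6 Foxp3-positive arrays stood above all 6 control arrays, and CD8 control replicate C lay above its group. Tox rose 4.16-fold in CD8 cells (2.05 ± 0.17, limma adjusted p = 1.98e-06) and 9.01-fold in CD4 cells (3.17 ± 0.17, adjusted p = 3.08e-08), with control means of 5.53 and 4.67, both below 5.60. The effects differed by -1.12 ± 0.24 (adjusted p = 0.00764).

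The relatives Tox2, Tox3 and Tox4 passed in neither lineage, with differences from -0.08 to -0.03 in CD8 and from -0.23 to -0.13 in CD4 cells. They belong to a list of TOX family genes and exhaustion transcription factors, of which 19 were measured. In CD8 cells 4 rose and 5 fell, and in CD4 cells 5 rose and 8 fell, where 20.0% and 22.5% of all genes passed in either direction. The list's medians were 0.09 and -0.16, against -0.02 and 0.00 over all genes. Nr4a3, an orphan nuclear receptor induced by T cell receptor signals, rose 1.48-fold in CD8 cells (0.56 ± 0.15, limma adjusted p = 0.0144) and 6.61-fold in CD4 cells (2.73 ± 0.15, adjusted p = 3.1e-08). Eomes, a T-box factor of cytotoxic and exhausted cells, fell 9.11-fold and 5.18-fold. Maf, which drives IL-10 and several inhibitory receptors, rose by 3.53 ± 0.15 in CD8 cells (adjusted p = 8.36e-09), where the CD8 control mean of 5.41 lay below 5.60, and fell 1.57-fold in CD4 cells (-0.65 ± 0.15, adjusted p = 0.0071). Nfatc1 passed in neither lineage (0.14 ± 0.10 and 0.02 ± 0.10).

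**Figure D3:**
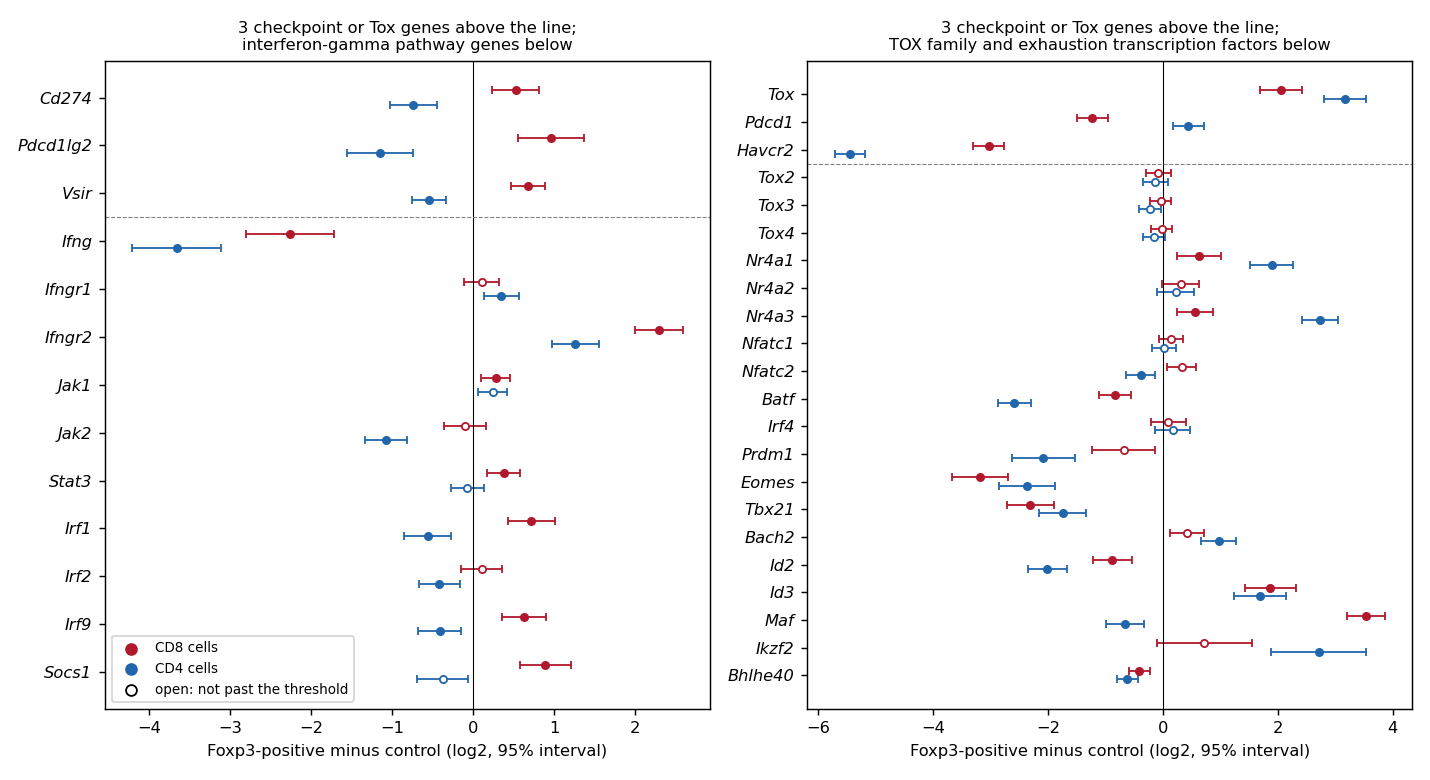
Log2 difference of Foxp3-positive minus control cells (horizontal, with 95% intervals of the limma model) in CD8 cells (red) and CD4 cells (blue) for interferon-gamma pathway genes and for TOX family and exhaustion factors, each below 3 genes of the checkpoint group. Filled points passed the threshold, and Irf1 has the red point at 0.72 and the blue point at -0.56, on opposite sides of 0 as for Cd274.

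Comparing the lineages directly, 5 of the 10 genes differed between CD8 and CD4 Foxp3-positive cells, 4 higher and 1 lower in CD8, where 4.71% of all genes did (2.41% higher, 2.30% lower). The arrays of CD8 and CD4 Foxp3-positive cells did not overlap for 7, as for 22.7% of all genes. Between the controls 7 differed, 3 higher and 4 lower in CD8, where 20.9% of all genes did (12.1% higher, 8.76% lower), and the arrays did not overlap for 7, as for 33.7% of all genes. The PD-1 ligand genes lost their gap. Cd274 differed by 0.01 ± 0.13 between CD8 and CD4 Foxp3-positive cells (95% interval -0.28 to 0.30, limma adjusted p = 0.986), against -1.25 ± 0.13 between CD8 and CD4 controls (adjusted p = 2.75e-05). Pdcd1lg2 differed by -0.02 ± 0.19 in Foxp3-positive cells (interval -0.43 to 0.39, adjusted p = 0.977), against -2.13 ± 0.19 in controls (adjusted p = 5.44e-06), where the CD8 control mean of 5.34 lay below 5.60. Tox did not pass in Foxp3-positive cells (-0.26 ± 0.17, adjusted p = 0.513) and was higher in CD8 than in CD4 controls (0.86 ± 0.17, adjusted p = 0.00249). Both Tox control means, 5.53 in CD8 and 4.67 in CD4 cells, lay below 5.60.

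Other genes kept, gained or turned their gap. Cd160 was higher in CD8 than in CD4 cells by 1.80 ± 0.19 among Foxp3-positive cells (limma adjusted p = 0.000124) and by 1.72 ± 0.19 among controls (adjusted p = 3.11e-05). Tigit was higher in CD8 Foxp3-positive than in CD4 Foxp3-positive cells by 1.25 ± 0.16 (adjusted p = 0.00052), and between controls it was at -0.23 ± 0.16 (adjusted p = 0.38). The sign turned for 3 genes that passed on both sides. Havcr2 was higher in CD8 by 1.84 ± 0.12 among Foxp3-positive cells (adjusted p = 3.16e-06) and lower by 0.57 ± 0.12 among controls (adjusted p = 0.00409). Vsir was at 0.59 ± 0.10 and -0.63 ± 0.10 in the same comparisons (adjusted p = 0.00308 and 0.000471).

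The third, Pdcd1, was lower in CD8 by 0.57 ± 0.12 among Foxp3-positive cells (limma adjusted p = 0.0186) and higher by 1.10 ± 0.12 among controls (adjusted p = 3.7e-05). Its call in Foxp3-positive cells was lost when replicate A or B of either Foxp3-positive group was left out (adjusted p 0.0537 to 0.0832). Ctla4 passed in neither comparison (0.27 ± 0.15 and -0.21 ± 0.15), nor did Lag3 (0.55 ± 0.18 and 0.22 ± 0.18). Without CD4 Foxp3-positive replicate C, Lag3 passed in Foxp3-positive cells (0.76, adjusted p = 0.0219), as it did with the replicate block (0.55, adjusted p = 0.0144).

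**Figure D4:**
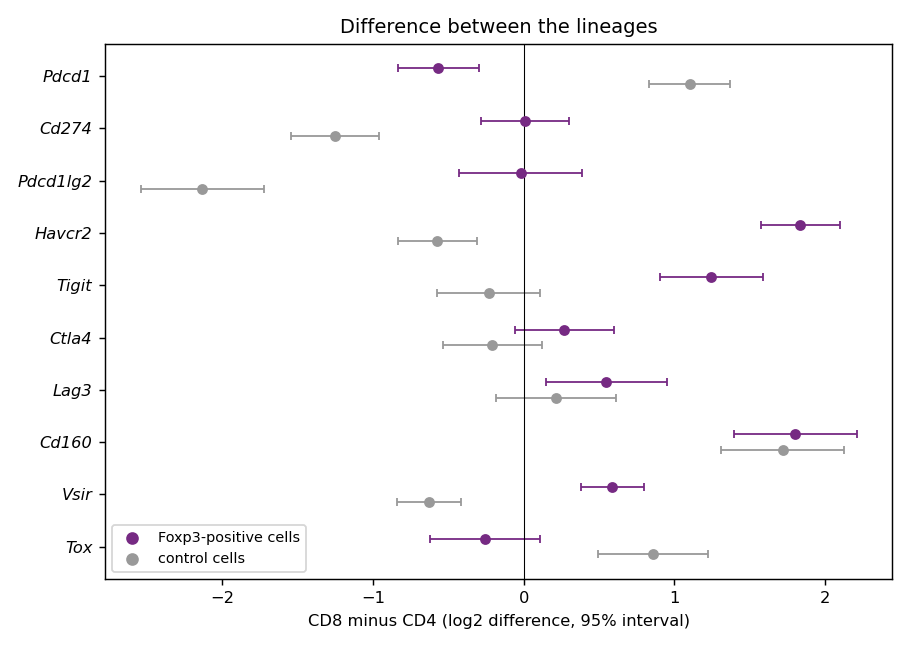
Log2 difference of CD8 minus CD4 cells (horizontal, with 95% intervals of the limma model) for each gene among Foxp3-positive cells (purple) and controls (grey). The purple points of Cd274 and Pdcd1lg2 lie at 0.01 and -0.02, and their grey points at -1.25 and -2.13.

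Further receptors and partners moved both ways. Of 15 other inhibitory receptors measured, 6 rose and 2 fell in CD8 cells, and 4 rose and 4 fell in CD4 cells, where 9.39% of all genes rose and 10.6% fell in CD8 cells and 12.1% rose and 10.4% fell in CD4 cells. The medians were 0.21 and -0.27, against -0.02 and 0.00 over all genes. Cd101, an immunoglobulin-family receptor of terminally exhausted and regulatory T cells, rose 13.2-fold in CD8 cells (3.72 ± 0.10, limma adjusted p = 1.52e-10) and 12.6-fold in CD4 cells (3.66 ± 0.10, adjusted p = 1.04e-10). Lilrb4a rose 2.12-fold in CD8 cells (adjusted p = 0.000536) and fell 3.82-fold in CD4 cells (adjusted p = 3.1e-06). Cd200r1 fell by 2.04 ± 0.24 in CD4 cells (adjusted p = 3.12e-05), where the CD4 Foxp3-positive mean of 5.31 lay below 5.60, and was at 0.60 ± 0.24 in CD8 cells (adjusted p = 0.102). Cd5 passed in neither lineage (0.21 ± 0.11 and 0.18 ± 0.11).

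Of 14 ligands and partners, 4 rose and 4 fell in CD8 cells, and 1 rose and 2 fell in CD4 cells, where 20.0% and 22.5% of all genes passed, so that the CD4 count is near that background. The median differences were 0.03 in CD8 and 0.01 in CD4 cells. Cd80, a ligand of CTLA-4 and CD28 that also binds PD-L1, fell in CD8 cells (-0.64 ± 0.15, limma adjusted p = 0.00675) and rose in CD4 cells (1.58 ± 0.15, adjusted p = 4.43e-06), the reverse of Cd274. Cd200 rose by 2.36 ± 0.29 in CD8 cells (adjusted p = 5.88e-05), where the CD8 control level of 5.49 ± 0.78 lay below 5.60 on average, and was at 0.18 ± 0.29 in CD4 cells (adjusted p = 0.722). Lgals3, a galectin that can bind LAG-3, fell 2.50-fold and 2.35-fold, and Cd47 passed in neither (-0.25 ± 0.08 and -0.19 ± 0.08).

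Of 11 activating counterparts, 5 rose and 2 fell in CD8 cells and 3 rose and 7 fell in CD4 cells, with medians of 0.35 and -0.55, where 20.0% and 22.5% of all genes passed. Tnfrsf9 (4-1BB) fell 1.93-fold in CD8 cells and 3.57-fold in CD4 cells (limma adjusted p = 0.00205 and 7.17e-06). Cd40lg fell 2.58-fold in CD4 cells (adjusted p = 4.35e-06) and was at -0.04 ± 0.13 in CD8 cells, and Cd2 passed in neither (0.04 ± 0.08 and 0.02 ± 0.08). Of 16 listed genes that act on inhibitory receptors, the T cell receptor or their signals, 4 rose and 5 fell in CD8 cells. In CD4 cells 3 rose and 6 fell, against the same shares of all genes. The medians were 0.01 in CD8 and -0.19 in CD4 cells. Dok1, an adaptor that restrains receptor signalling, rose by 1.81 ± 0.08 in CD8 and by 1.18 ± 0.08 in CD4 cells on the log2 scale, and Pag1, which anchors the kinase Csk, fell by 1.23 ± 0.15 and by 1.64 ± 0.15. Trat1, which stabilises the T cell receptor and CTLA-4 at the surface, rose 4.94-fold in CD8 cells (adjusted p = 7.9e-05) and fell 3.02-fold in CD4 cells (adjusted p = 0.00124). Csk passed in neither (0.17 ± 0.09 and 0.14 ± 0.09).

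The genes most like each of the 10 in level over the 12 arrays were sought among 3273 genes whose highest group mean was at least 5.60 and an SD of at least 0.3 (Pearson's r, a description, since the arrays form 4 groups). They were Rilpl2 (0.966) and Mbd4 (0.955) for Pdcd1, Parp14 (0.9785) and Slfn2 (0.973) for Cd274, Jcad (0.961) and Il4ra (0.960) for Pdcd1lg2, and Hip1 (0.9465) and S100a1 (0.944) for Vsir. Havcr2 was most like the chemokine receptor gene Cxcr6 (0.994) and Pik3ap1 (0.985), Tox like Ift80 (0.998) and H2-Ob (0.995), and Cd160 like Rcn3 (0.969) and the killer cell receptor gene Klrd1 (0.9685). Tigit was most like Zfp148 (0.952) and Pdgfrl (0.942), and Ctla4 like Per3 (0.941) and N4bp2l1 (0.936). Lag3 had the weakest likeness, to Rtn4rl1 (0.881) and Atcayos (0.871).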

How the data were processed

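RNA of 12 sorted T cell samples was measured on Affymetrix arrays (WT Plus labelling, as the labels' protocols state). The authors deposited log2 expression for each transcript cluster, and the submitters' processing notes name Affymetrix Expression Console and RMA. RMA usually gives all arrays the same distribution, so a change in total RNA per cell would not show. Software versions and the genome build were not given in the sources used here. Labels name no batch, so none was tested.

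Of 34365 clusters, 23521 had 1 gene symbol, and the brightest cluster of a gene stood for it, which left 22180 genes. A model with 4 group means was fitted to all 12 arrays with lmFit and eBayes (limma 3.58.1, R 4.3.3; 8 residual and 4.56 prior degrees of freedom) and tested on simulated data. Tests are two-sided, with Benjamini-Hochberg adjustment across the 22180 genes. The 10 genes and all lists were chosen with earlier results of these data known. Named besides the 10 are the 2 genes most like each, the 3 largest called differences of each pathway list, its brightest gene called in neither lineage, and genes said to be chosen otherwise. Lists were matched by symbol or synonym, and unmatched genes were not analysed here. Alternatives were 9 other settings and leaving out each array.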

Additional observations from a re-analysis of the deposited data

Results flagged for a closer look

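For 7 of the 10 genes the effect in CD8 cells differed from the effect in CD4 cells by limma's interaction test (Foxp3-positive minus control, CD8 minus CD4). The same held for 13.5% of all genes. The difference was -1.67 for Pdcd1 (adjusted p = 5.67e-05), which fell in CD8 and rose in CD4 cells without overlap of arrays. It was 1.26 for Cd274 (0.000869), 2.11 for Pdcd1lg2 (0.000246) and 1.22 for Vsir (9.97e-05), which rose in CD8 and fell in CD4 cells without overlap of arrays. For Tigit it was 1.48 (0.000855), for Havcr2, which fell in both, 2.41 (2.78e-06), and for Tox, which rose in both, -1.12 (0.00764). Arrays of Foxp3-positive and control cells did not overlap for 33.5% of all genes in CD8 and 37.8% in CD4 cells. Days of culture differed between the lineages (4 and 5), so lineage and time cannot be told apart. Groups of 3 arrays were not searched for outliers.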

How the results depend on the processing

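Of 50 comparisons of the 10 genes, 35 passed in the fit reported, and 31 of these passed under all 9 other settings and with each of 12 arrays left out, while none of the 35 changed sign. The exceptions were the Pdcd1 rise in CD4 cells, the Pdcd1 lineage difference in Foxp3-positive cells, the Cd160 rise in CD4 cells and the Cd274 rise in CD8 cells, whose calls single arrays decided. With only the compared groups fitted, the first 2 had adjusted p = 0.0562 and 0.0548, where fewer arrays enter. Of the 15 not called, 12 stayed so. Signs turned only for 5 uncalled differences of at most 0.08 in size. Cd274 between the Foxp3-positive groups was -0.001 after quantile normalization and -0.032 with array weights, and -0.094 to 0.092 with an array left out. The Cd160 difference of effects was -0.014 with array weights and -0.095 to 0.23 with an array left out. Leaving out an array also gave -0.067 to 0.013 for Pdcd1lg2 between the Foxp3-positive groups, -0.16 to 0.208 for Lag3 and -0.261 to 0.084 for Tigit in CD4 cells. Genes called between the Foxp3-positive groups ran from 674 (without CD8 Foxp3-positive replicate B) to 1145 with an array left out, against 1044. Under the other settings they ran from 808 to 1414. The labels do not say whether replicate letters pair the arrays. Deviations from group means correlated at -0.10 to 0.14 for 18 same-letter pairs, over 0.1 for 2. Pairs of different letters correlated at -0.14 to 0.09, an overlapping range. Between the CD8 groups same letters gave 0.05, 0.13 and 0.14, above the -0.14 to 0.02 of different letters. Between the CD4 groups same letters gave 0.01, -0.10 and -0.04, within or below the -0.05 to 0.09 of different letters. Same letters were thus more alike within CD8 but not within CD4 cells, and these values do not settle whether letters pair all the arrays. With the replicate block 4359 genes were called in CD8 cells and 4872 in CD4 cells, against 4430 and 4985. In that fit Lag3 passed in CD8 cells (0.38, adjusted p = 0.0268) and between the Foxp3-positive groups (0.55, adjusted p = 0.0144), and no other call of the 10 genes changed. The cause of these changes was not tested. With 3 arrays a group and no background level, small differences and low signals are the least certain.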
